A study of Mus musculus with 24 samples.

Results

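The 10 genes described here, of tumour necrosis factor (TNF) signalling and its transcription factor NF-kB, were followed through oligodendrocyte (OL) and whole-tissue RNA after contusive spinal cord injury (SCI). They were the ligand Tnf, the death and survival receptors Tnfrsf1a, Tnfrsf1b, Tnfrsf12a and Fas, the inhibitors Nfkbia and Tnfaip3, and the NF-kB subunits Nfkb1, Nfkb2 and Relb. The genes were chosen by name as components of this pathway, and their rows were found in the count table through their Ensembl identifiers, 10 of the 21965 genes listed. All 10 were among the 17167 genes tested (a sum of at least 10 counts over all libraries). In OL-Ribotag mice, tamoxifen switches on an HA-tagged RPL22 in cells of the OL lineage that carry CreERT2, so that ribosomes of mature OLs can be pulled down with their mRNAs. Spinal cord around the T9 vertebra was taken from uninjured (naive) mice and from mice killed 2, 10 or 42 days after a 50 kdyn contusion with the IH impactor. Days after injury are written as dpi (days post injury). Each group had 3 pools of 2 female mice, and every pool gave 1 library from the HA pull-down (OL) and 1 from the input lysate (total RNA), 24 libraries in all. All groups carried the same alleles and received tamoxifen. The naive mice had no injury and no sham surgery is described, so surgery and its after-care differ along with the injury. Per the study's methods naive and dpi 42 tissue was collected on the same day, 10 weeks after tamoxifen was started. Naive mice were thus older, and further from tamoxifen, than mice of dpi 2 and dpi 10. None of these differences can be told apart from the injury. The sample labels give an age of 10 to 12 weeks in every group, and the methods give a somewhat younger age at injury. The CreERT2 line is also active in Schwann cells, pooling hides the spread between single mice, and a pool is the replicate throughout.

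Tnf is made mainly by activated microglia, macrophages and other immune cells. It binds TNFR1 (Tnfrsf1a), which most cells carry and which can lead either to NF-kB activation or to cell death through caspase-8. It also binds TNFR2 (Tnfrsf1b), which is found largely on immune cells and is linked to survival and, in OL lineage cells, to remyelination. In resting cells NF-kB dimers are held in the cytoplasm by IkB proteins such as IkBα (Nfkbia). A slower non-canonical branch, driven by receptors such as Tnfrsf12a and Ltbr, processes p100 (Nfkb2) to p52, which pairs with Relb. NF-kB raises transcription of several of its own components, among them Nfkbia and Tnfaip3, whose products end the signal.

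Total counts on genes were 29075211 to 32987841 in the 12 OL libraries and 25840127 to 29050061 in the 12 total RNA libraries. Values below are CPM (read counts relative to the TMM-scaled library total) of tissue pools 1, 2 and 3 in that order. All 8 OL markers were OL enriched in each group, with a median log2 of 2.59 to 2.70. Several libraries stood apart. The 5 astrocyte markers (Gfap, Aqp4, Aldh1l1, Slc1a3 and Gja1) summed to 790.7 to 2245 CPM in 7 OL libraries and to 4488 to 10870 CPM in the other 5, which are pool 3 of naive, pool 3 of dpi 2, pool 2 of dpi 10 and pools 1 and 2 of dpi 42. The 2 libraries of dpi 2 pool 2 held 2414 and 2604 counts on 4 Y-linked genes, against 0 to 13 in the other 22, although the mice are described as female. For 2 dpi 42 libraries (total RNA of pool 1 and OL of pool 1) title and description name different kinds of RNA, and the description, which the count table follows, was used. By that choice the 8 OL markers summed to 103500 CPM in the OL library and 23340 CPM in the total RNA library. All OL libraries spanned 96310 to 157900 CPM and all total RNA libraries 19320 to 27880 CPM.

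The RefSeq promoter table (GRCm38.p6) held windows for 8 of the 10 genes, from 250 bases before to 50 bases after a start site, with entries missing for Nfkb1 and Relb. They were searched on both strands for the 10-base κB consensus, the DNA motif that NF-kB dimers bind, which occurs in 2779 of all 32851 promoter windows (8.46%). The 8 genes have 11 windows, of which 5 held it. These belong to 3 genes, namely Nfkbia, Tnfaip3 and Nfkb2. The 150 bases before the start are shown for these because the 3 genes, each with the motif close to its start, behaved differently in OLs. Capitals mark the matches.
Nfkbia (chr12:55492648-55492797, minus strand): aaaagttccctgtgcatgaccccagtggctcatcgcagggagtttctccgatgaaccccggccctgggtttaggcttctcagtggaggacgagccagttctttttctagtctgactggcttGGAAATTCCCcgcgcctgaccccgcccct
Tnfaip3 (chr10:19015411-19015560, minus strand): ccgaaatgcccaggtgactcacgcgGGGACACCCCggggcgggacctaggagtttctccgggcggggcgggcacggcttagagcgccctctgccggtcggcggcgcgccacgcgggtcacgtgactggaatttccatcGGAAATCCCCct
Nfkb2 (chr19:46304587-46304736, plus strand): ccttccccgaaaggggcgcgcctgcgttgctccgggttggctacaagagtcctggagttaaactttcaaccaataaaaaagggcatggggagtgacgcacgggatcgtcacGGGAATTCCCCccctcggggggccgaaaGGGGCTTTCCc
In the windows shown, the Nfkbia match begins 29 bases before the start, those of Tnfaip3 125 and 12 bases before it, and those of Nfkb2 39, 38 (overlapping the former) and 11 bases before it. The other Tnfaip3 window held no match. Of the other Nfkb2 windows, which overlap each other, 1 held matches 236 bases before and 10 bases after its start. Another held a match 225 bases before its start. A match is a string of letters and does not show binding. Windows of Tnf, Tnfrsf1a, Tnfrsf1b, Tnfrsf12a and Fas held no match to these letters.

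On dpi 2 the 4 receptors and both inhibitors rose in OLs, and on each day Tnfrsf1a, Tnfrsf1b, Tnfrsf12a and Tnfaip3 did. The NF-kB subunits rose in total RNA on each day, and in OLs Relb alone did, on dpi 42. In the OL translatome 7 of the 10 genes were higher than in naive OLs on dpi 2 (18.4% of all tested genes were called higher), 5 on dpi 10 (9.62%) and 6 on dpi 42 (16.2%), at q (the Benjamini-Hochberg adjusted p) under 0.05 in the quasi-likelihood test of edgeR. In bulk RNA fewer cells of a type and less RNA per cell cannot be told apart. Their median log2 fold change was 1.93, 1.25 and 2.44, against 0 over all tested genes on each day. In total RNA 8 of the 10 were higher on each day, where 16.4%, 13.9% and 10.4% of all genes were, with medians of 1.503, 1.62 and 1.41 against -0.10, -0.10 and -0.08 over all genes. None of the 10 was called lower on any day, in OLs (20%, 8.59% and 16.9% of all genes were) or in total RNA (20.8%, 18.2% and 12.1%). At an unadjusted p under 0.05 edgeR had 1 lower, Nfkb1 in OLs on dpi 2, and DESeq2 called none lower. The total RNA values of the 3 injured pools lay above all 3 naive pools for each of the 10 genes on every day. In the OL libraries of dpi 2 that was so for Tnf, Tnfrsf1a, Tnfrsf1b, Tnfrsf12a and Tnfaip3, while Fas and Nfkbia were called with overlapping values. Markers of other cells were higher in these OL libraries too. The 5 fibroblast markers summed to 48.4 to 87.2 CPM in naive OLs and 193.0 to 247.4, 430.0 to 485.3 and 201.4 to 235.2 CPM on dpi 2, 10 and 42 (4, 4 and 5 of 5 called higher, at most 1 at 0 in a library). The 5 endothelial markers summed to 4.33 to 5.09 CPM in naive OLs and 7.81 to 17.8 CPM after SCI (4, 3 and 3 of 5 called higher, at most 2 at 0), and the part of either in the OL changes was not tested.

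**Figure D1:**
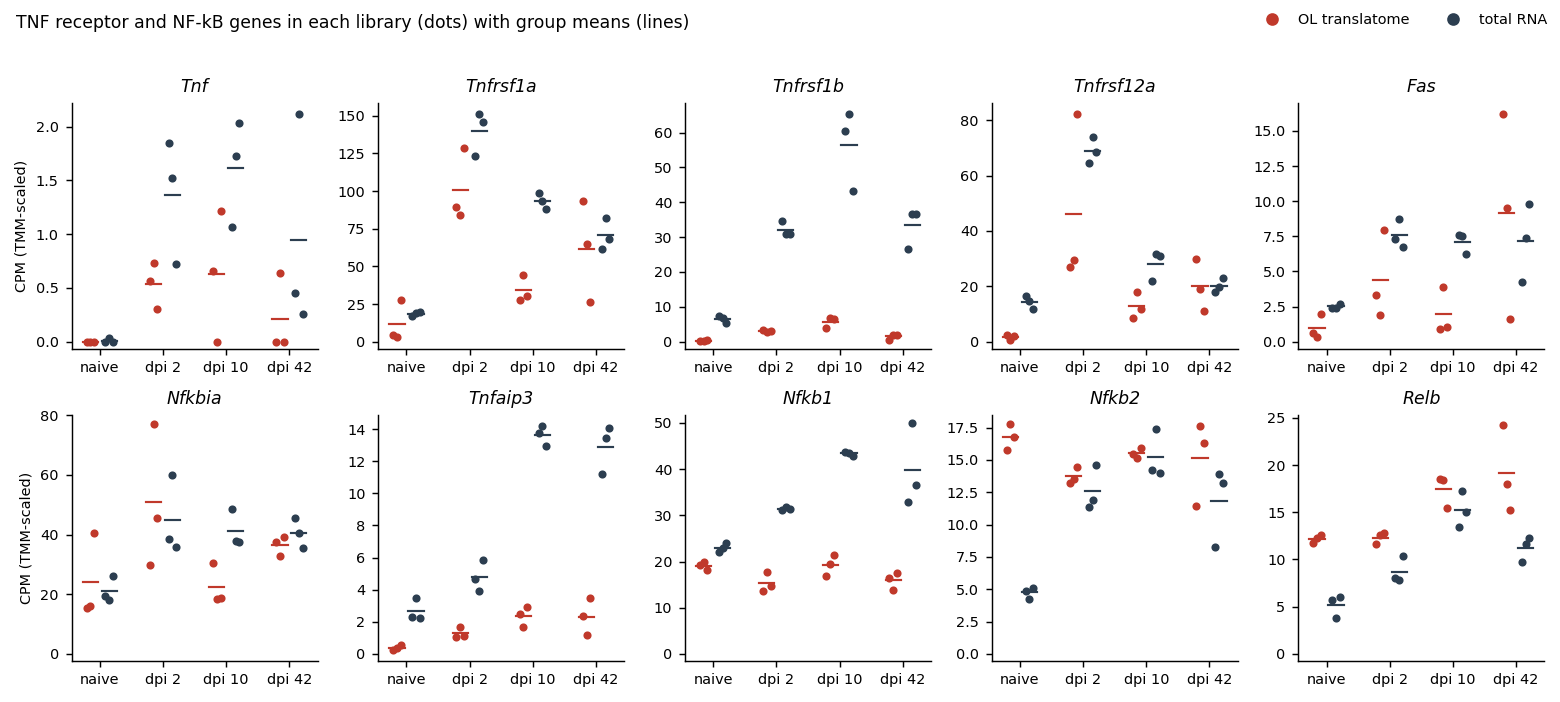
CPM of the 10 genes in each of the 24 libraries (dots) with the mean of 3 pools (lines), OL in red and total RNA in dark blue, by group on the horizontal axis. Tnfrsf1a, Tnfrsf1b and Tnfrsf12a are higher after SCI in both kinds of library, while Nfkb2 starts at 15.8 to 17.8 CPM in naive OLs and 4.26 to 5.10 CPM in naive total RNA and the kinds overlap after injury.

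The ligand Tnf was at or near the limit of detection. Naive OL libraries held 0 counts each, which allows up to 3 counts per library. Naive total RNA 0, 1 and 0 counts. On dpi 2 the OL libraries held 15, 18 and 8 counts and the total RNA libraries 66, 51 and 24. By dpi 10 the OL counts were 17, 0 and 32 and the total RNA counts 36, 60 and 71. On dpi 42 a single OL library, pool 2, held 17 counts while the other two held none, and total RNA held 15, 74 and 9. Tnf was thus detected in every injured total RNA library, and in all 3 OL libraries of dpi 2 alone. In OLs it was at least 4.36-fold higher on dpi 2 (q = 0.0166) and at least 5.11-fold higher on dpi 10 (q = 0.0279), taking 3 counts in each naive library as the floor. On dpi 42, at 1.73 times that floor, q was 0.0579. Total RNA Tnf was 128 times the naive level on dpi 2, 150.5 times on dpi 10 and 88.2 times on dpi 42, with 95% counting intervals from 22.7, 26.7 and 15.5 upwards, since the naive level rests on 1 count (q = 0.00928, 0.00899 and 0.0242). These intervals were taken from counts summed over the 3 pools and leave out the spread between pools. The dpi 10 call in OLs was lost without naive pool 1, 2 or 3 (q = 0.0809, 0.0798 and 0.0612) or without dpi 10 pool 3 (q = 0.0818). That of dpi 42 total RNA was lost without naive pool 1, 2 or 3 (q = 0.0913, 0.0519 and 0.0945) or dpi 42 pool 2 (q = 0.109). The dpi 42 OL change was called without OL pool 1 or pool 3 of that day (q = 0.0413 and 0.0332). OL enrichment of Tnf was not called in any group (q = 0.217 to 0.506), though on dpi 42 it was without OL pool 2 (q = 0.00656).

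Tnfrsf1a, the TNF receptor with a death domain, rose in both kinds of library on all days. Naive OL libraries had 4.62, 3.13 and 27.9 CPM, and those of dpi 2 had 89.4, 84.4 and 128 CPM. On dpi 10 it stood at 27.7, 44.6 and 30.3 CPM and on dpi 42 at 93.5, 64.7 and 26.5 CPM. Naive pool 3 was about as high as the lowest libraries of dpi 10 and dpi 42, so that only dpi 2 was clear of all naive pools. Total RNA went from 17.3, 19.3 and 19.5 CPM to 123, 151 and 146 on dpi 2, then 98.7, 93.6 and 87.8 on dpi 10 and 61.7, 81.9 and 68.2 on dpi 42. The log2 fold change in OLs was 3.08 ± 0.54 (SE) on dpi 2 (q = 0.000105), 1.52 ± 0.52 on dpi 10 (q = 0.0448) and 2.37 ± 0.53 on dpi 42 (q = 0.0015), and in total RNA 2.91 ± 0.53, 2.32 ± 0.52 and 1.92 ± 0.51 (q = 0.000169, 0.00151 and 0.00954). From dpi 2 to dpi 10 OL Tnfrsf1a fell by 1.56 on the log2 scale (q = 0.0303), which was not called without dpi 2 pool 3 or dpi 10 pool 1 or 3 (q = 0.0947, 0.119 and 0.104). The dpi 10 call did not hold without naive pool 1 (1.14, q = 0.179), naive pool 2 (1.07, q = 0.159), dpi 10 pool 1 (1.65, q = 0.0535), pool 2 (1.28, q = 0.146) or pool 3 (1.59, q = 0.0721). Differential OL enrichment, the difference between the OL and the total RNA change, was not called (0.17, -0.80 and 0.45). Without naive OL pool 3 it was 1.58 on dpi 2 (q = 0.0184) and 1.90 on dpi 42 (q = 0.00882), and naive OL enrichment went from -0.65 (q = 0.297) to -2.11 (q = 3.82e-05). With tissue pools as a replicate block that naive value was -1.28 (q = 0.0493).

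Those swings moved with the astrocyte markers, and naive OL pool 3 also stood apart in the 5 Schwann cell markers (637.9 CPM against 12.2 and 13.2 CPM). In each group the OL library with the highest Tnfrsf1a, Fas and (except in naive) Tnfrsf12a was the one with the highest astrocyte marker sum. The 5 markers summed to 983.4, 790.7 and 4488 CPM in naive OL libraries, 2245, 817.4 and 6585 on dpi 2, 1686, 5293 and 2109 on dpi 10, then 10870, 8622 and 1655 on dpi 42, and none of the 5 was at 0 in any OL library. In total RNA they summed to 2266 to 3362 CPM in naive and 4707 to 6452 CPM after SCI. Single markers did not all follow these sums. In OLs 0, 0 and 1 of the 5 were called higher on dpi 2, 10 and 42, and 1 lower on dpi 2. In total RNA none was called higher and 1 was lower on dpi 2, with list medians of -0.28, -0.28 and 0.005. The part of astrocyte and Schwann cell RNA in these results was not tested. When the 5 OL libraries with the highest marker levels were left out, a choice made after seeing the data, Tnfrsf1a differed between OL and total RNA in naive tissue by -2.11 (q = 7.83e-10), on dpi 2 by -0.74 (q = 9.27e-05) and on dpi 42 by -1.37 (q = 3.49e-06). That choice leaves 1 OL library (pool 3) on dpi 42, so each dpi 42 value without the 5 libraries, here and below, assumes that the lone library varies like the other groups. The differential OL enrichment of Tnfrsf1a on dpi 2 was then 1.37 (q = 0.000115), and 7, 5 and 6 genes were called in OLs on dpi 2, 10 and 42.

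**Figure D2:**
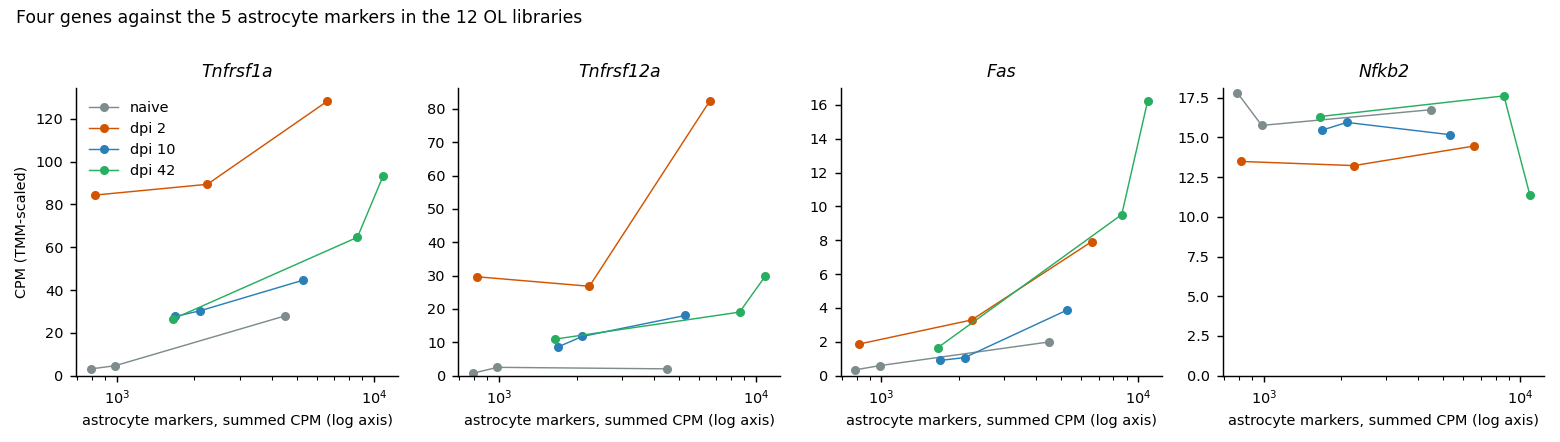
CPM of Tnfrsf1a, Tnfrsf12a, Fas and Nfkb2 in the 12 OL libraries against the summed CPM of the 5 astrocyte markers in the same library (log axis), with the 3 pools of a group joined by a line. Tnfrsf1a and Fas are highest in the library with the most astrocyte marker RNA of each group (Fas 16.2 CPM at 10870 CPM of markers), and Nfkb2 stays between 11.4 and 17.8 CPM.

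Tnfrsf1b, the second TNF receptor, also rose in both, at a far lower level in OLs. Its OL values were 0.168, 0.212 and 0.383 CPM in naive, 3.21, 2.80 and 3.02 on dpi 2, 3.96, 6.66 and 6.43 on dpi 10, then 0.489, 2.05 and 1.96 on dpi 42. Total RNA held 7.38, 6.80 and 5.29 CPM in naive, then 34.7, 30.8 and 30.9, 60.4, 65.3 and 43.3, and 26.7, 36.6 and 36.8 CPM on dpi 2, 10 and 42. No injured library of either kind reached down to the naive range. The OL change was 3.53 ± 0.43 on dpi 2 (q = 1.43e-06), 4.44 ± 0.42 on dpi 10 (q = 2.64e-07) and 2.52 ± 0.45 on dpi 42 (q = 0.000184), with a peak on dpi 10 that was higher than dpi 2 (0.92, q = 0.0446) and dpi 42 (lower by -1.93, q = 0.00363). The first of these calls was lost without any of the dpi 2 OL pools or without dpi 10 pool 2 or 3 (0.85 to 1.04, q = 0.0553 to 0.107), and with a replicate block (q = 0.0547). Tnfrsf1b was depleted from OLs in each group, by -4.64, -3.41, -3.31 and -4.48 in naive, dpi 2, 10 and 42, and its OL value was 1.83% to 14.8% of the total RNA value of the same pool. Differential OL enrichment was 1.22, 1.33 and 0.15, none called (q = 0.149, 0.148 and 0.978). The 11 markers of microglia and macrophages moved along in sum. In OL libraries they summed to 19.3 to 27.4 CPM in naive, 80.8 to 102.7 on dpi 2, 223.5 to 253.7 on dpi 10 and 135.4 to 232.2 on dpi 42, with at most 2 of 11 at 0 in any library, and these sums were 5.23% to 10.5% of those in total RNA. Of the 11, 10, 10 and 9 were called higher in OLs on dpi 2, 10 and 42, and 1 was called lower on dpi 2. The part of these cells in the Tnfrsf1b change was not tested.

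Tnfrsf12a (Fn14), the receptor for TWEAK and an activator of the non-canonical branch, had the largest OL change of the 4 receptors on dpi 2 and dpi 42 and was the single gene of the 10 with a called gain in OL enrichment when all libraries were used. Naive OLs held 2.48, 0.719 and 2.03 CPM against 26.8, 29.7 and 82.3 on dpi 2, 8.54, 18.03 and 11.8 on dpi 10, then 29.9, 19.04 and 10.96 on dpi 42. In total RNA it was 16.4, 14.7 and 11.7 CPM in naive and 64.6, 73.8 and 68.6 on dpi 2, but 21.9, 31.6 and 30.9 on dpi 10 and 18.01, 19.8 and 22.9 on dpi 42. OL values after injury thus exceeded the naive ones in every pool, while in total RNA the dpi 42 values were just above the naive ones. In OLs the change was 4.72 ± 0.48 (q = 1.4e-07), 2.87 ± 0.46 (q = 0.000139) and 3.51 ± 0.46 (q = 8.59e-06), and in total RNA 2.28 ± 0.41 (q = 0.000156), 0.98 ± 0.40 (q = 0.0668) and 0.50 ± 0.40 (q = 0.405). Differential OL enrichment was 2.45 ± 0.59 on dpi 2 (q = 0.00762), 1.89 ± 0.60 on dpi 10 (q = 0.0571) and 3.01 ± 0.60 on dpi 42 (q = 0.00351). From a depletion of -3.03 ± 0.46 in naive tissue (q = 7.25e-06), OL enrichment came to -0.58 on dpi 2 (q = 0.222), -1.14 on dpi 10 (q = 0.0215) and -0.02 on dpi 42 (q = 1.0), so that Tnfrsf12a was in no group called OL enriched, and without OL pool 3 of dpi 2 that day's depletion was called (-1.34, q = 0.00433). The OL value as a share of total RNA in the same pool was 4.90% to 17.3% in naive, and the highest shares after injury, 120% on dpi 2 and 166% on dpi 42, were in the libraries with most astrocyte marker RNA. Without the 5 OL libraries rich in astrocyte markers the differential OL enrichment was 1.65 on dpi 2 (q = 0.00495), 1.56 on dpi 10 (q = 0.0139) and, from 1 OL library, 2.15 on dpi 42 (q = 0.00562). OL enrichment was then -1.34 on dpi 2 (q = 0.000112) and -0.84 on dpi 42 (q = 0.0396, again from 1 OL library).

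Tnfsf12 (TWEAK), the ligand of Tnfrsf12a, rose beside it. OL values went from 0.672, 0.677 and 2.68 CPM to 4.69, 6.28 and 10.5 on dpi 2, 3.42, 5.21 and 6.13 on dpi 10, then 6.50, 11.01 and 7.20 on dpi 42, and each injured pool lay above the naive ones. The OL change was 2.40 ± 0.41, 1.86 ± 0.41 and 2.601 ± 0.42 (q = 8.84e-05, 0.00298 and 6.39e-05). That of total RNA was 1.74, 1.76 and 1.57, and differential OL enrichment was not called (q = 0.295 to 1.0).

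Fas, which triggers apoptosis through FADD and caspase-8, varied widely between OL pools. OL libraries held 0.588, 0.338 and 1.99 CPM in naive, 3.29, 1.86 and 7.92 on dpi 2, 0.893, 3.88 and 1.07 on dpi 10, then 16.2, 9.52 and 1.64 on dpi 42, so the naive and injured ranges overlapped on all days. Total RNA was tighter, with 2.43, 2.42 and 2.69 CPM in naive and 7.31, 8.74 and 6.77, 7.59, 7.53 and 6.25, and 4.23, 7.38 and 9.79 CPM on dpi 2, 10 and 42. Fas rose in OLs on dpi 2 (2.15 ± 0.73, q = 0.0241) and dpi 42 (3.22 ± 0.75, q = 0.00226), and on dpi 10 the change was 0.99 ± 0.73 (q = 0.394). The dpi 2 call was lost without naive pool 1 (1.83, q = 0.0999), naive pool 2 (1.68, q = 0.112) or dpi 2 pool 3 (1.34, q = 0.172). In total RNA the changes of 1.60, 1.502 and 1.504 had q = 0.0781, 0.107 and 0.132 in the model that shares its spread with the OL libraries, and q = 0.000104, 8.62e-06 and 0.00137 when only the groups compared were fitted. In OLs that fit called fewer of the 10 genes, 3 in place of 7 on dpi 2 and 2 in place of 6 on dpi 42. OL enrichment in naive tissue was -1.36 (q = 0.12), and -2.27 without naive OL pool 3 (q = 0.023). On dpi 42 it was 0.36 (q = 0.691), and -2.07 (q = 0.00259) without the libraries rich in astrocyte markers, where pool 3 is the one OL library left. Its ligand Fasl had no count in any OL library and at most 0.269 CPM in total RNA. Casp8 rose in OLs by 3.98 ± 0.63, 3.78 ± 0.63 and 4.02 ± 0.63 on dpi 2, 10 and 42 (q = 3.25e-05, 0.000228 and 5.15e-05), from 0.0423 to 0.252 CPM in naive to 2.11 to 4.17 CPM on dpi 2, and it was OL depleted in each group (-3.75 to -2.004). The adaptor Fadd showed the reverse order, being OL enriched in naive tissue by 1.90 ± 0.22 (q = 2.41e-07), rising in total RNA on dpi 2 (1.10 ± 0.22, q = 0.000411) and not being called in OLs (-0.23, q = 0.432).

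**Figure D3:**
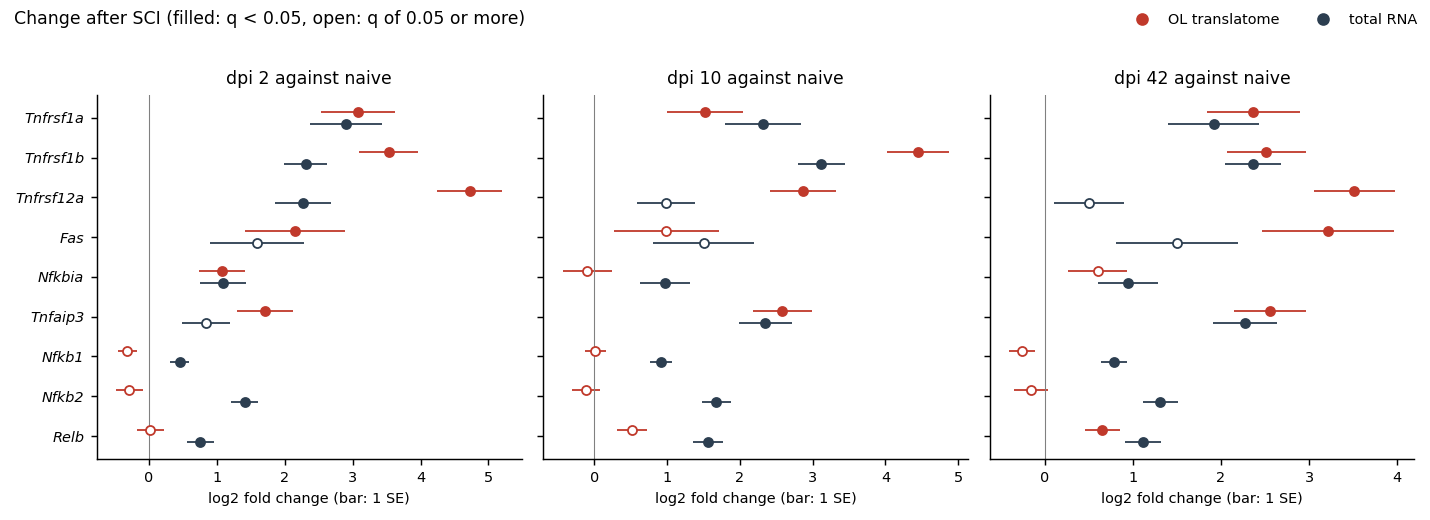
Log2 fold change against naive (points) with 1 SE (bars) for 9 genes on dpi 2, 10 and 42, OL in red and total RNA in dark blue, filled where q is under 0.05. Tnf is left out because its naive libraries were at 0 or 1 counts. Receptors lie to the right of 0 in both kinds of library, Tnfrsf12a further right in OLs (4.72 against 2.28 on dpi 2), and Nfkb1 and Nfkb2 are filled in total RNA alone.

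Nfkbia (IkBα) had 15.5, 16.1 and 40.7 CPM in naive OLs, 29.8, 77.1 and 45.6 on dpi 2, 30.3, 18.5 and 18.8 on dpi 10, then 37.6, 33.0 and 39.1 on dpi 42. Naive pool 3 was within the range of dpi 2 and above every OL pool of dpi 10 and dpi 42. Total RNA held 19.3, 17.99 and 26.0 CPM in naive, 38.7, 59.98 and 35.8 on dpi 2, 48.5, 37.8 and 37.6 on dpi 10, then 45.5, 40.4 and 35.7 on dpi 42, all above naive. Nfkbia rose in OLs on dpi 2 by 1.07 ± 0.34 (q = 0.0153) and had fallen by 1.17 on dpi 10 against dpi 2 (q = 0.0155), a call lost without dpi 2 pool 2 (-0.68, q = 0.166) or dpi 10 pool 2 or 3 (q = 0.0824 and 0.084). In total RNA it was 1.09, 0.97 and 0.94 higher (q = 0.0143, 0.0314 and 0.0485). The highest dpi 2 values, 77.1 and 59.98 CPM, came from pool 2 with its Y-linked counts, and without that pool the OL change was 0.64 (q = 0.137) and the total RNA change 0.82 (q = 0.0593). Leaving out naive OL pool 1 or 2 also ended the OL call (0.77, q = 0.111, and 0.78, q = 0.108), and without naive OL pool 3 the dpi 42 OL change was called (1.15, q = 0.0059). The calls in total RNA were as sensitive, since leaving out naive pool 1 or 2 ended each of them (q = 0.0529 to 0.161). The same held for pool 2 of dpi 2 (q = 0.0969), pool 1 or 2 of dpi 10 (q = 0.107 and 0.0512), and naive pool 3 or any pool of dpi 42 for the dpi 42 call (q = 0.0543 to 0.119).

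Tnfaip3 (A20), a ubiquitin-editing brake on the TNF receptor complex, rose in OLs on each day and was called higher in total RNA on dpi 10 and dpi 42. Its total RNA values of dpi 2 also lay above all naive pools, without a call (q = 0.0673). OL values were 0.252, 0.381 and 0.536 CPM in naive and 1.06, 1.70 and 1.11, 2.49, 1.67 and 2.93, and 2.34, 1.16 and 3.48 on dpi 2, 10 and 42, above naive in every pool. Total RNA went from 2.30, 3.48 and 2.25 CPM to 4.65, 3.89 and 5.87 on dpi 2, 13.8, 14.2 and 12.96 on dpi 10, then 11.2, 13.5 and 14.1 on dpi 42. The OL change was 1.71 ± 0.41 (q = 0.00202), 2.58 ± 0.41 (q = 0.000118) and 2.56 ± 0.41 (q = 5.8e-05), and that of total RNA 0.84 ± 0.35 (q = 0.0673, or 1.08 with q = 0.0495 without naive pool 2), 2.35 ± 0.36 (q = 4.08e-05) and 2.27 ± 0.36 (q = 0.000117). From dpi 2 to dpi 10 it rose in total RNA by 1.51 (q = 0.00893, or 0.061 without dpi 2 pool 2). OLs were depleted of Tnfaip3 in each group (-2.76, -1.89, -2.53 and -2.47), and differential OL enrichment was not called (0.87, 0.23 and 0.29). The summed microglia and macrophage markers given above moved with it too, and their part was not tested.

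The 3 NF-kB subunits were the most even of the 10 genes across OL libraries. Nfkb1 (p105/p50) had 19.2, 19.8 and 18.3 CPM in naive OLs, 13.6, 17.7 and 14.6 on dpi 2, 16.9, 19.4 and 21.5 on dpi 10, then 16.5, 13.9 and 17.5 on dpi 42. In total RNA it went from 22.1, 22.9 and 24.1 CPM to 31.2, 31.8 and 31.4, then 43.8, 43.6 and 42.9, and then 32.8, 49.9 and 36.5 CPM. OL values on dpi 2 and 42 were thus below and total RNA values above all naive pools. Total RNA Nfkb1 rose by 0.45 ± 0.14 (q = 0.0174), 0.92 ± 0.14 (q = 4.91e-05) and 0.79 ± 0.14 (q = 0.00043), whereas in OLs the values were -0.32 ± 0.15, 0.01 ± 0.15 and -0.26 ± 0.15 (q = 0.0918, 1.0 and 0.189). The dpi 2 value in OLs was called without dpi 2 pool 2 (-0.49, q = 0.0212), and the total RNA call of dpi 2 was lost without naive pool 1 (0.42, q = 0.0624). Differential OL enrichment was -0.77 ± 0.20, -0.90 ± 0.20 and -1.05 ± 0.20 (q = 0.0144, 0.00872 and 0.00317), and OL enrichment went from -0.27 in naive (q = 0.121) to -1.04, -1.17 and -1.32 (q = 3.71e-06, 6.41e-07 and 1.33e-07).

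Nfkb2 (p100/p52) showed the largest shift of the subunits. In naive tissue it was OL enriched by 1.82 ± 0.20 (q = 9.73e-08), with 15.8, 17.8 and 16.8 CPM in OLs and 4.89, 4.26 and 5.10 CPM in total RNA, so that OL values were 323%, 419% and 328% of those in total RNA. On dpi 2 OLs held 13.2, 13.5 and 14.5 CPM, on dpi 10 15.5, 15.2 and 15.95, and on dpi 42 11.4, 17.6 and 16.3. Total RNA meanwhile reached 11.3, 11.9 and 14.6 on dpi 2, 14.2, 17.4 and 13.99 on dpi 10, then 8.30, 13.9 and 13.2 on dpi 42. Total RNA came up to the OL level, and OL values were 87.3% to 137% of total RNA after injury. Total RNA Nfkb2 rose by 1.41 ± 0.20, 1.68 ± 0.20 and 1.31 ± 0.20 (q = 9.86e-06, 1.95e-06 and 6.31e-05), the OL values were -0.29, -0.11 and -0.15 (q = 0.261, 0.785 and 0.615), and differential OL enrichment was -1.70 ± 0.28, -1.79 ± 0.28 and -1.46 ± 0.28 (q = 0.000294, 0.000316 and 0.00239). Without OL pool 1 of dpi 42, OL enrichment on that day was called (0.54, q = 0.0279).

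Relb, the partner of p52, was the one subunit with a called OL change when all libraries were used. OL values were 11.7, 12.3 and 12.6 CPM in naive, 11.6, 12.6 and 12.8 on dpi 2, 18.5, 18.4 and 15.5 on dpi 10, then 24.3, 17.99 and 15.3 on dpi 42, above naive on the last 2 days. Total RNA held 5.71, 3.77 and 6.02 CPM in naive and 8.01, 7.78 and 10.4, 13.5, 17.3 and 15, and 9.71, 11.7 and 12.3 on dpi 2, 10 and 42. In OLs the change was 0.02 ± 0.20 (q = 1.0), 0.52 ± 0.20 (q = 0.0793) and 0.66 ± 0.20 (q = 0.0148), and in total RNA 0.75 ± 0.20 (q = 0.00537), 1.56 ± 0.20 (q = 6.04e-06) and 1.12 ± 0.20 (q = 0.000398). The dpi 42 OL call was lost without naive pool 1 (0.57, q = 0.0725), naive pool 2 (0.60, q = 0.0612) or dpi 42 pool 1 (0.40, q = 0.161). It was also lost without the libraries rich in astrocyte markers (0.33, q = 0.474, from 1 OL library of dpi 42). OL enrichment was 1.24 ± 0.20 in naive (q = 2.22e-05), 0.50 on dpi 2 (q = 0.0406, or 0.0729 with pools as a replicate block), 0.19 on dpi 10 (q = 0.421) and 0.77 on dpi 42 (q = 0.00244). The dpi 2 call was also lost when any one of the 3 OL libraries or total RNA pool 1 or 2 of that day was left out (0.42 to 0.48). That of dpi 42 was lost without the 2 dpi 42 libraries whose labels conflict. Differential OL enrichment was -1.04 ± 0.28 on dpi 10 (q = 0.0263, or -1.07 with q = 0.0616 with pools as a replicate block), and it was lost without naive total RNA pool 2 (-0.86, q = 0.0827) or dpi 10 total RNA pool 2 (-0.94, q = 0.0848). On dpi 2 it was -0.74 (q = 0.0937), and it was called when any single naive or dpi 2 OL library was left out (-0.97 to -0.92).

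**Figure D4:**
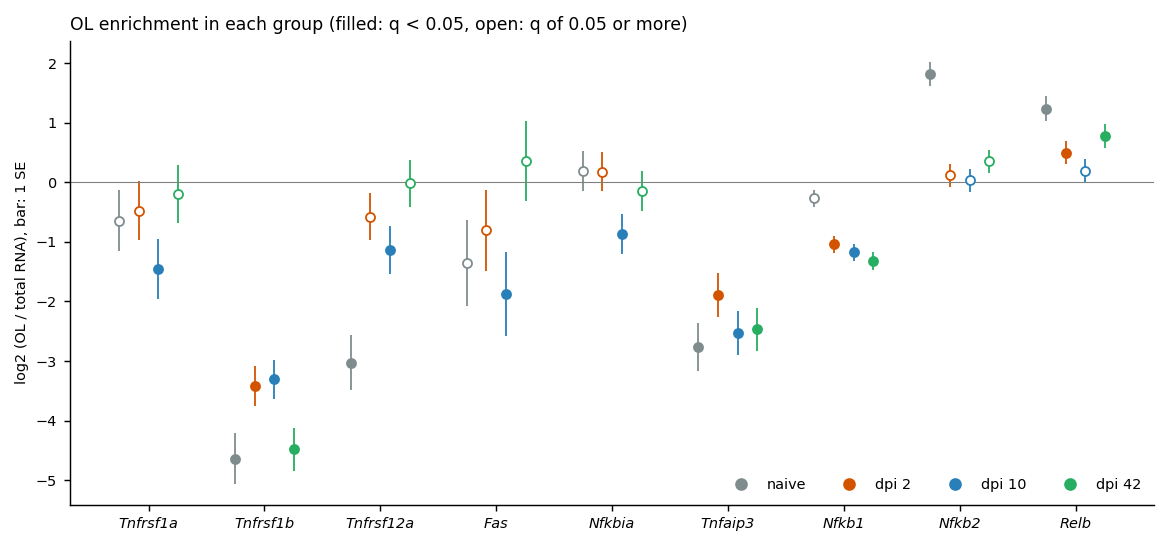
OL enrichment, the log2 ratio of OL to total RNA (points) with 1 SE (bars), for 9 genes in the naive, dpi 2, dpi 10 and dpi 42 groups, filled where q is under 0.05. Nfkb2 goes from 1.82 in naive to 0.03 on dpi 10, Tnfrsf12a from -3.03 to -0.02 on dpi 42, and Tnfrsf1b and Tnfaip3 lie below 0 in each group.

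Across the 10 genes, OL enrichment was called higher for 2 and lower for 3 in naive tissue (24.9% and 30.5% of all genes), for 1 and 3 on dpi 2 (24.8% and 28.8%) and for 1 and 3 on dpi 42 (24.9% and 28.9%), while on dpi 10 it was lower for 7 (28.8%, with 25.2% higher over all genes). Their median was -1.002, -0.69, -1.27 and -0.17 in naive, dpi 2, 10 and 42, beside -0.27, -0.19, -0.22 and -0.19 over all genes. Of the 7 lower on dpi 10, those of Tnfrsf1a, Tnfrsf12a, Fas and Nfkbia (-1.45, -1.14, -1.87 and -0.87) did not hold without some single library. Without dpi 10 OL pool 3 they were -1.34, -1.05, -1.54 and -0.72 (q = 0.066, 0.0688, 0.116 and 0.127). The first 3 were also lost without dpi 10 OL pool 1 (-1.28, -0.88 and -1.49, q = 0.0782, 0.112 and 0.126). The Nfkbia call was lost without OL pool 2 (q = 0.13) or total RNA pool 1 (q = 0.108), that of Fas without total RNA pool 1 or 2 (q = 0.0589 and 0.0586), and that of Tnfrsf12a without total RNA pool 2 or 3 (q = 0.0604 and 0.0559). Differential OL enrichment was called for 1 higher and 2 lower on dpi 2 (8.06% and 6.03%), 3 lower on dpi 10 (3.09%, with 4.57% higher) and 1 higher and 2 lower on dpi 42 (4.37% and 3.47%), and all calls lower were subunits. The study's rule for an OL response by differential enrichment asks for an OL change and a differential OL enrichment of the same sign. Both must be beyond 1 on the log2 scale and have q under 0.05. The rule was applied here with the edgeR tests without pairing, while the study used DESeq2 with OL and total RNA of a tissue paired. By the edgeR tests Tnfrsf12a was the one gene of the 10 that met it, on dpi 2 and dpi 42, when 2.63% and 1.42% of all genes did. None of the 10 met it on dpi 10 (0.606%). DESeq2 without pairing called 1 of the 10 higher in differential OL enrichment on dpi 10, where 1053 of all genes were.

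Between the injured groups, OL dpi 10 against dpi 2 gave 1 gene higher (11.7% of all genes) and 3 lower (10.6%), namely Tnfrsf1b against Tnfrsf1a, Tnfrsf12a and Nfkbia. Tnfrsf12a fell there by 1.85 (q = 0.00212). OL dpi 42 against dpi 2 gave Relb higher (0.64, q = 0.0307, with 8.91% of all genes higher) and Tnfrsf1b and Tnfrsf12a lower (-1.01, q = 0.0447, and -1.21, q = 0.0407, with 8.66% of all genes lower). Relb was not called without dpi 2 pool 1 or 2 or dpi 42 pool 1 (q = 0.0767, 0.062 and 0.151). Tnfrsf1b was not called without any of the dpi 2 pools or dpi 42 pool 1 (q = 0.0721 to 0.165, down to -0.57), nor Tnfrsf12a without dpi 2 pool 3 (-0.50, q = 0.345), dpi 42 pool 2 or 3 (q = 0.0974 and 0.141), or with a replicate block (q = 0.0698). In total RNA dpi 10 exceeded dpi 2 for Tnfaip3, Nfkb1 and Relb (3.31%) and was lower for Tnfrsf12a (-1.29, q = 0.0498, with 4.53% lower). The Nfkb1 and Tnfrsf12a calls were lost without any one of the 6 libraries (q = 0.111 to 0.129 and 0.0829 to 0.196), and that of Tnfrsf12a with a replicate block (q = 0.0643). Relb was not called without dpi 2 pool 1 or 2 or dpi 10 pool 2 (q = 0.0582, 0.0792 and 0.0779). Total RNA of dpi 42 against dpi 2 gave Tnfaip3 higher (1.43, q = 0.0111, or 0.0711 without dpi 2 pool 2, with 5.17% higher) and Tnfrsf12a lower (-1.77, q = 0.00649, with 5.59% lower). Between dpi 42 and dpi 10, 1 gene was lower in OLs (Tnfrsf1b, with 3.90% of all genes lower) and none higher (3.28%, and 1 of the 10 at an unadjusted p under 0.05). In total RNA edgeR called none of the 10 between those days (0.0583% of all genes higher and 0.204% lower), with 2 lower at an unadjusted p under 0.05.

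Per kilobase of exon, naive OLs held most Nfkbia (14.97 CPM per kb ± 8.91, SD, n = 3), followed by Tnfrsf1a (4.58 ± 5.35), Nfkb2 (3.66 ± 0.224), Relb (3.14 ± 0.108) and Nfkb1 (1.58 ± 0.0664). Tnfrsf12a (0.902 ± 0.473), Fas (0.471 ± 0.431), Tnfrsf1b (0.0665 ± 0.0297) and Tnfaip3 (0.0539 ± 0.0196) came below, and Tnf had no count. The SD of Tnfrsf1a exceeds its mean, so that it spans every gene below it and reaches Nfkbia above it. Tnfrsf12a and Fas overlapped, and so did Tnfrsf1b and Tnfaip3, whereas Nfkb2, Relb and Nfkb1 were further apart than their SD. In naive total RNA the order was Nfkbia (13.1 ± 2.66), Tnfrsf12a (7.38 ± 1.21), Tnfrsf1a (7.21 ± 0.450), Nfkb1 (1.91 ± 0.0841), Tnfrsf1b (1.70 ± 0.282), Relb (1.33 ± 0.314), Fas (1.22 ± 0.0762), Nfkb2 (1.04 ± 0.0960), Tnfaip3 (0.370 ± 0.0967) and Tnf. Tnfrsf12a and Tnfrsf1a did not differ there beyond their SD, nor did neighbours from Nfkb1 to Fas. Nfkb2 and Relb thus ranked above Tnfrsf12a in OLs and below it in total RNA.

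Over the 24 libraries, which share their groups and their kind of RNA, the genes most like 8 of the 10 members by Pearson's r of log2 CPM were as follows, as a description. Tnfrsf1b was most like Ly86 (0.98), Lcp2 and Tifab, and Tnfaip3 like Tgfbr2 (0.96), Ctss and Trem2. Several of these, among them Ly86, Ctss and Trem2, are known as microglial genes. Tnfrsf1a was most like Ccn1 (0.97), Ehd2 and Tspo, Tnfrsf12a like S100a10 (0.96), Lgals1 and Gpx1, and Fas like Hspb8 (0.96), P4ha3 and Ackr3. Nfkbia was most like Angpt2 (0.89), Pros1 and Sult1a1, and Tnf like Ms4a4a (0.85), Tpcn2 and Clec4a1. Relb was most like Fuca1 (0.93), Hebp1 and Kank2.

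Rela, the p65 partner of p50 and the main activating subunit of the canonical branch, showed the pattern of Nfkb2 at a higher level. Naive OLs held 115, 127 and 117 CPM and naive total RNA 25.2, 28.8 and 26.6 CPM, an OL enrichment of 2.16 ± 0.13 (q = 6.96e-12). OLs after injury stayed at 91.4 to 127 CPM, with changes of -0.26, 0.00 and -0.04 that were not called (q = 0.105 to 1.0). Total RNA rose by 0.88 ± 0.12, 1.01 ± 0.12 and 0.89 ± 0.12 (q = 8.94e-06, 2.8e-06 and 2.32e-05), and differential OL enrichment was -1.14, -1.001 and -0.93 (q = 0.00014, 0.000927 and 0.00208). Bcl3, an atypical IkB protein that acts with p50 and p52 in the nucleus, behaved otherwise. It went from 0.420, 0.804 and 0.995 CPM in naive OLs to 40.7, 48.0 and 47.7 on dpi 2, 8.35, 12.0 and 11.5 on dpi 10, then 26.2, 11.8 and 10.3 on dpi 42, a rise of 5.93 ± 0.41, 3.83 ± 0.39 and 4.43 ± 0.39 (q = 8.39e-10, 5.87e-07 and 8.16e-08) close to that of total RNA (5.34, 4.19 and 3.80). Bcl3 was not OL enriched or depleted by the test in any group.

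The wider pathway was described by 6 lists. Their counts stand beside 18.4%, 9.62% and 16.2% of all genes higher and 20%, 8.59% and 16.9% lower in OLs, and the shares of total RNA given above. Of 17 tested ligands of the TNF superfamily (Tnf included), 4 rose and 1 fell in OLs on dpi 2, 3 rose on dpi 10 and 2 on dpi 42, with a list median of 0.00, 0.99 and 0.84. Tnfsf11 (RANKL) rose on each day from no count in naive OLs to 3.55, 12.3 and 0.880 CPM on dpi 2. Tnfsf10 (TRAIL) was called lower in OLs on dpi 2 (q = 0.00277), from 0.0423 to 0.336 CPM to no count. Its naive values were near the floor, since 3 counts in a naive OL library are 0.115 to 0.127 CPM. Total RNA had 6, 3 and 3 ligands higher. Among 24 other TNF receptors, 4, 5 and 4 rose in OLs and 7, 5 and 3 in total RNA, while 1 fell on dpi 2 and 2 on dpi 42 in OLs and 1 on dpi 2 in total RNA. Ltbr, the lymphotoxin receptor of the non-canonical branch, rose in both (OL 2.18 ± 0.26, 1.36 ± 0.25 and 1.63 ± 0.25, total RNA 2.13, 1.53 and 1.32, all q at most 0.000649). Relt, a less studied member of the family, rose in OLs and did not pass the test in total RNA (OL 1.40, 1.71 and 1.48, total RNA -0.44, -0.51 and -0.34, differential OL enrichment 1.85 ± 0.35, 2.22 ± 0.35 and 1.82 ± 0.35, q = 0.00108, 0.000367 and 0.00262). Ngfr (p75), a death-domain receptor of OLs and Schwann cells, went from 11.8, 12.95 and 9.33 CPM to 46.2, 30.9 and 38.2 CPM in OLs on dpi 10 (1.76 ± 0.51, q = 0.0189). Schwann cell markers were also higher in those libraries, summing to 893.1 to 1566 CPM on dpi 10 against 12.2, 13.2 and 637.9 CPM in naive OLs, and their part was not tested.

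Of 28 receptor-proximal signalling genes 6, 3 and 5 rose and 5, 3 and 6 fell in OLs, and 10, 12 and 7 rose and 4 fell on each day in total RNA. Among those that fell in OLs on each day were Cyld, a deubiquitinase that restrains NF-kB (-0.74, -0.59 and -0.60), and Tax1bp1, an adaptor of A20 (-0.57, -0.63 and -0.81). Both fell in total RNA as well. Ripk1, the kinase that links TNFR1 to survival or death, rose in total RNA (1.53, 1.75 and 1.17) but not by the test in OLs (-0.28, -0.09 and -0.14), with differential OL enrichment of -1.81 ± 0.44 (q = 0.00832), -1.84 ± 0.44 (q = 0.013) and -1.31 ± 0.44 (q = 0.0748). Of 7 kinases of NF-kB activation, 1, 2 and 1 rose in OLs and 2, 4 and 2 in total RNA, while 1 fell in OLs on dpi 2 and on dpi 42 and 1 in total RNA on each day. Map3k14 (NIK), which starts the non-canonical branch, had 1.11 to 2.55 CPM in all OL libraries with no called change. Among 7 other Rel and IkB genes 2, 2 and 3 rose in OLs and 4, 5 and 3 in total RNA.

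Of 17 tested textbook NF-kB targets outside the 10 genes, 7, 5 and 5 rose in OLs (1 fell on dpi 2 and 1 on dpi 10) and 8, 7 and 7 rose in total RNA (1 fell on each day). Their medians were 1.39, 1.68 and 2.46 in OLs and 2.54, 2.34 and 1.61 in total RNA. Icam1, an adhesion molecule for leukocytes, rose in OLs by 3.39 ± 0.78, 5.09 ± 0.76 and 6.24 ± 0.76 (q = 0.00153, 6.45e-05 and 3.9e-06), with 18.2, 12.1 and 3.99 CPM on dpi 42, in the order of the astrocyte marker sums. Lcn2, a product of reactive astrocytes and neutrophils, reached 16.1, 7.29 and 73.6 CPM on dpi 2 and 74.8, 69.7 and 20.1 CPM on dpi 42 in the same order, from at most 0.306 CPM in naive OLs. Smaller differences were seen for the more abundant Sod2 and Bcl2l1. Sod2, a mitochondrial antioxidant enzyme, fell in total RNA (-0.80, -0.87 and -0.55) and had 0.21, -0.46 and 0.07 in OLs (called on dpi 10, q = 0.0328). Bcl2l1 (Bcl-xL), which blocks apoptosis, was OL enriched in each group (1.23 to 1.55) and rose in OLs on dpi 2 by 0.56 ± 0.14 (q = 0.00363).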

How the data were processed

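Reads were aligned by the authors to the mouse genome (mm10, GRCm38.p6) with STAR after FastQC 0.10.1 and assigned to genes with HTSeq 0.10.0, per the labels and the study's methods. The deposited table holds raw read counts of 21965 genes in 24 libraries, with no normalization, and all its columns were used. The authors tested counts with DESeq2. Symbols, positions and exon lengths came from GENCODE M21 (21939 identifiers matched).

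All tests used edgeR 4.0.16 under R 4.3.3, on the 17167 genes whose counts summed to 10 or more. After TMM scaling, the quasi-likelihood F test was taken from a fit of 8 group means (16 residual degrees of freedom). Adjusted p (q) is by Benjamini-Hochberg over all tested genes, and calls are at q under 0.05. The script was tested on simulated counts. OL change and total RNA change are injured against naive, OL enrichment is OL against total RNA in a group, and differential OL enrichment is the difference between the changes, which share their naive libraries. Between replicates counts differed by more than sampling noise (median chi-square per gene 2.59 to 21.4). OL and total RNA of the same pool come from the same mice, and their deviations from group means correlated by 0.0408 to 0.137 in naive, 0.0879 to 0.108 on dpi 2, 0.0245 to 0.063 on dpi 10 and -0.0109 to 0.02 on dpi 42.

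Alternatives were other scalings and filters, DESeq2 1.42.0, fits of only the groups compared, a replicate block and leaving out libraries. The 10 genes and the pathway lists were chosen with earlier results of these data known. Beside the 10 genes, pathway genes were named for acting with one of them or for a small p, and Ngfr, Map3k14, Sod2 and Bcl2l1 after their values were seen. The genes most like Nfkb1 and Nfkb2 and the promoter of the Cre line are not reported here.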

Additional observations from a re-analysis of the deposited data

Results flagged for a closer look

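These values met the same criterion, that the OL and the total RNA change after SCI differed by the interaction test in edgeR. The OL to total RNA ratio of Tnfrsf12a, OL depleted in naive tissue, rose on dpi 2 (2.45, q = 0.00762) and dpi 42 (3.01, q = 0.00351). Nfkb1 was not called OL enriched or depleted in naive tissue. Its ratio fell on dpi 2 (-0.77, q = 0.0144), dpi 10 (-0.90, q = 0.00872) and dpi 42 (-1.05, q = 0.00317). The ratio of Nfkb2, OL enriched in naive tissue, changed by -1.70 on dpi 2 (q = 0.000294), -1.79 on dpi 10 (q = 0.000316) and -1.46 on dpi 42 (q = 0.00239). Relb followed on dpi 10 (-1.04, q = 0.0263). The naive libraries are shared by the 3 days.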

How the results depend on the processing

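The replicate block (pools for OL enrichment and differential OL enrichment, replicate numbers, which pair no samples, for changes) ended the calls of Relb in OL enrichment on dpi 2 (0.51, q = 0.0729), Relb in differential OL enrichment on dpi 10 (-1.07, q = 0.0616), Nfkbia in total RNA on dpi 42 (0.95, q = 0.0598) and 3 calls between injured groups, gave 1 call (Tnfrsf1a in naive OL enrichment, -1.28, q = 0.0493) and changed no other. Fitting only the groups compared, which leaves fewer libraries to estimate the spread, called 3, 3 and 2 genes in OLs on dpi 2, 10 and 42 in place of 7, 5 and 6. In total RNA that fit called 10 on each day in place of 8. DESeq2 called 7, 6 and 7 in OLs and 10, 9 and 8 in total RNA. Without the 2 dpi 42 libraries whose labels conflict, 5 values of single genes lost their call and 1 gained it. Leaving out 1 library gave 5 to 7, 3 to 4 and 5 to 7 genes in OLs on dpi 2, 10 and 42. It gave 3 to 6 in OL enrichment on dpi 10 and 3 to 5 in differential OL enrichment on dpi 2. Without the OL libraries rich in astrocyte markers, OL enrichment was called for 7 genes on dpi 42, where 1 OL library was left and was assumed to vary like the other groups, and differential OL enrichment for 5 on dpi 2. Of values called in one of the fits, directions turned for Fas in OL enrichment on dpi 42 without those libraries (-2.07), and with library sizes alone for Relb on dpi 2 (-0.068) and Nfkb2 on dpi 10 (-0.54). That scaling moved the median OL enrichment of all genes by -0.58 to -0.50 and the median total RNA change by 0.11 to 0.20. Of all calls of OL enrichment, 18.5% to 24.4% were then higher (45.0% to 46.7% with TMM), and 61.6%, 70.8% and 62.3% of OL changes (47.9%, 52.8% and 49.1%). With a total RNA library as TMM reference 31.9%, 37.6% and 30.6% of differential calls were higher (57.2%, 59.7% and 55.7%) and 58.9% to 65.8% of total RNA changes (43.3% to 46.2%). Of 3129 alternative values for single genes 2902 stayed on their side of the threshold, 148 lost the call, 76 gained one and those 3 turned. Of the 2902, 124 changed sign and were called in neither fit, 75 of them with 1 library left out. Tnf had 0 to 74 counts per library, a depth at which small changes of it were not detectable.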
